A study of Mus musculus with 6 samples.

Results

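The ISG15 conjugation system was followed in N9 cells, an established mouse microglial line, through its 5 dedicated genes. These are Isg15, Uba7, Ube2l6, Herc6 and Usp18, and they were taken by gene name from a deposited table of read counts for 54532 genes. All 5 were found, all 5 passed the filter on low counts that left 12296 genes for testing, and none had fewer than 22 counts in any library. RNA was sequenced from 3 samples of N9 cells that received LPS (1 µg/ml, 6 h) and 3 samples of untreated N9 cells, the control. LPS is lipopolysaccharide, a bacterial cell wall product that activates these cells through TLR4. Both groups were the same unmodified line in the same RPMI 1640 culture medium with serum and antibiotics, and 1 time point was sampled. The labels do not say whether the 3 samples of a group were separate cultures, so the p-values measure the spread between these samples, which may be technical.

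ISG15 is a small protein related to ubiquitin that is attached to other proteins by a chain of 3 enzymes, in a process called ISGylation. UBA7 is the E1 that activates ISG15, UBE2L6 is the E2 that receives it, and in the mouse HERC6 is the principal E3 ligase that passes it to a target, whereas human cells use HERC5. USP18 is the protease that removes ISG15 again, and it also binds the interferon receptor chain IFNAR2 and restrains signalling there. All of these genes are known as type I interferon targets, and in microglia and macrophages LPS is known to induce interferon-β through TLR4.

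Total counts lay between 16363767 and 17956772 per library, and 3 counts corresponded to 0.161 to 0.19 CPM. CPM is a count relative to the library total, after scaling each total by TMM, whose factors were 1.034 to 1.036 in control and 0.9646 to 0.9699 in LPS libraries. Any pair of libraries from the same group differed beyond sampling noise, with a chi-square statistic per gene of 3.47 to 7.35. The cells carried macrophage markers, with summed levels over 15 markers of 1944 to 2029 CPM in control and 2002 to 2042 CPM in LPS libraries, and Csf1r, Cd68, Ptprc and Adgre1 were all high. Several markers of resident microglia were near 0, with Sall1 at 1 count or fewer and P2ry12 at 3 to 6 counts per library. Hepatocyte markers were counted in control replicates 2 and 3, where Alb had 155 and 292 counts, and their sum ran from 0.175 to 22.5 CPM in control and from 0.244 to 0.548 CPM in LPS libraries. Without these 2 control libraries all 5 genes still passed the test in the same direction. Of 4 neutrophil markers, S100a8 rose by a log2 fold change of 1.41, whereas Ly6g was at 0 in every library. Of the markers of other brain cells, Aldh1l1 (astrocyte) at 350 to 534 counts and Mbp (oligodendrocyte) at 457 to 672 counts were present in every library and were down-regulated, at -0.29 and -0.34 on the log2 scale, whereas Aqp4 and Mog had 2 counts or fewer. Col1a1 and Col1a2 (fibroblast) had 36 to 70 counts in control replicates 1 and 3 and LPS replicate 1 and 3 or fewer in the other libraries. Of the endothelial markers Cdh5 had 2 to 13 counts and Cldn5 was at 0, as was Cd3e of lymphocytes. The part of these markers in the changes below was not tested.

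A log2 fold change is LPS against control, with its standard error (SE) from edgeR's quasi-likelihood test, and its p is adjusted by Benjamini-Hochberg over the 12296 genes. A gene was up-regulated or down-regulated at an adjusted p under 0.05, and it was called a DEG when the absolute log2 fold change was also over 1.5. Levels are mean ± SD of CPM over 3 libraries. In this bulk RNA, more cells with a transcript and more transcript per cell cannot be told apart.

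With LPS, 5 of 5 genes of the system were up-regulated and 4 of 5 were DEG. Of all tested genes 2.65% were DEG, 2.40% with a higher and 0.252% with a lower level, and 18.7% were up-regulated and 15.7% down-regulated at any size. The sizes differed widely. Isg15 rose 86.3-fold and Usp18 45.3-fold, Uba7 and Herc6 rose 3.98-fold and 3.51-fold, and Ube2l6 rose 1.44-fold and was not a DEG. For all 5, every LPS library lay above every control library, which held for 23.7% of tested genes.

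Isg15 encodes the modifier itself (ENSMUSG00000035692, GRCm38 chr4:156199424-156200818, minus strand, 2 exons). The 3 control libraries held 36, 22 and 31 counts of it, and the LPS libraries 2365, 2362 and 2293. The control libraries were all low and the LPS libraries lay close together, with no overlap. The level went from 1.67 ± 0.427 to 145 ± 5.16 CPM (SD, n = 3), with a log2 fold change of 6.43 (SE 0.10, edgeR adjusted p = 1.01e-15). This was the 20th largest fold change of the tested genes. A processed pseudogene of Isg15 on chromosome 17, AC151275.1, had 1 count in 1 library and 0 in the others.

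The bases just upstream of the Isg15 start site are shown because they hold a repeated interferon-type element. The interferon-stimulated response element (ISRE) is a DNA motif bound by IRF proteins, among them IRF9 in complex with STAT2, and its core was searched on both strands as GAAA, any 2 bases and GAAA again. The stretch below is GRCm38.p6 chr4:156200819-156201068, read 5′ to 3′ on the minus strand, from base -250 to base -1 before the RefSeq start, and the capitals mark the run of matches.
Isg15 upstream: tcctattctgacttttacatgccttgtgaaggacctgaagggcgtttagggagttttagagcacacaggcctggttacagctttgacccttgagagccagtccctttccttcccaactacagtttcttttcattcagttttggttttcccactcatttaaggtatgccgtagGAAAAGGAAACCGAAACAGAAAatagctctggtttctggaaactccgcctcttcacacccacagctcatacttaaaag
The run from -78 to -57 holds 3 overlapping copies of the core, starting at -78, -72 and -66. At least 1 copy was found in 3.44% of 32851 mouse promoter windows of 300 bases. The longer form, with a further 2 bases of any kind and another GAAA, contains the core and matched in 2 overlapping positions, and it was present in 0.116% of windows.

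Usp18 encodes the deconjugating protease (ENSMUSG00000030107, GRCm38 chr6:121245906-121270917, plus strand, 11 exons in its longest coding transcript). Its counts were 90, 70 and 58 in control libraries and 3131, 3054 and 2831 with LPS. Again the groups were far apart, with every control library low. The level rose from 4.11 ± 1.07 to 186 ± 13.0 CPM (SD, n = 3), with a log2 fold change of 5.50 (SE 0.11, edgeR adjusted p = 8.08e-15). It ranked 31 among the fold changes of all tested genes. Gm44148, an annotated gene that overlaps Usp18, had no more than 2 counts in any library.

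Uba7 encodes the ISG15-activating E1 enzyme (ENSMUSG00000032596, GRCm38 chr9:107975505-107984060, plus strand, 24 exons in its coding transcript). Counts of Uba7 were 141, 135 and 159 in control and 450, 593 and 538 in LPS libraries. LPS replicate 1 was the lowest of its group and still lay well above each control library. The level rose from 8.15 ± 0.456 to 32.5 ± 3.83 CPM (SD, n = 3), with a log2 fold change of 1.99 (SE 0.11, edgeR adjusted p = 1.62e-09). Uba7 has 15 annotated transcripts, of which 10 are labelled retained intron, and counts per gene do not separate them.

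Herc6 encodes the E3 ligase (ENSMUSG00000029798, GRCm38 chr6:57581000-57664632, plus strand, 23 exons in its coding transcript). Counts of Herc6 were 137, 124 and 121 in control and 400, 433 and 392 in LPS libraries. Its groups did not overlap, and each held closely spaced libraries. The level rose from 7.18 ± 0.755 to 25.2 ± 1.27 CPM (SD, n = 3), with a log2 fold change of 1.81 (SE 0.11, edgeR adjusted p = 3.83e-09). When the fold change itself was tested against 1.5 on the log2 scale with edgeR's glmTreat, Herc6 was no longer called (adjusted p = 0.0749), whereas Uba7 was (adjusted p = 0.00321).

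Short upstream stretches of Uba7 and Herc6 are shown around the only matches found there among the 5 patterns searched. The Uba7 stretch is GRCm38.p6 chr9:107975403-107975433 and the Herc6 stretch is GRCm38.p6 chr6:57580931-57580961, both on the plus strand, with the match in capitals.
Uba7 upstream: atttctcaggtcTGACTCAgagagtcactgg
Herc6 upstream: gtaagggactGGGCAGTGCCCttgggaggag
Positions count from the RefSeq start, chr9:107975567 for Uba7 and chr6:57580992 for Herc6, which differ from the gene starts given above. The Uba7 match, from -152 to -146, is to TGANTCA, a pattern of AP-1 that 7.81% of windows hold. The Herc6 run holds a pattern of NF-κB, searched as GGG, any 5 bases and CC, from -51 to -42 and, on the opposite strand and overlapping it, from -50 to -41, and 50.8% of windows hold this pattern. Neither window held an exact match to the ISRE core. The search took exact matches only, so near matches were not counted. The Uba7 window also holds tttcacttttggtttc, which on the opposite strand differs from the longer form by a single base.

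Ube2l6 encodes the E2 enzyme of the system (ENSMUSG00000027078, GRCm38 chr2:84798828-84810335, plus strand, 4 exons in its longest coding transcript). Counts of Ube2l6 were 849, 944 and 1040 in control and 1193, 1262 and 1261 in LPS libraries. Of the 5 genes it had the smallest fold change, yet the groups did not overlap. The level rose from 53.0 ± 3.22 to 76.5 ± 0.731 CPM (SD, n = 3), with a log2 fold change of 0.53 (SE 0.06, edgeR adjusted p = 2.75e-06). This ranked 1094 among all tested genes. A processed pseudogene of Ube2l6, AC102745.2, had 0 counts in every library.

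The same upstream interval of Ube2l6 is shown for comparison with Isg15. It is GRCm38.p6 chr2:84798578-84798827 on the plus strand, from -250 to -1, and it has no capitals because none of the 5 patterns matched.
Ube2l6 upstream: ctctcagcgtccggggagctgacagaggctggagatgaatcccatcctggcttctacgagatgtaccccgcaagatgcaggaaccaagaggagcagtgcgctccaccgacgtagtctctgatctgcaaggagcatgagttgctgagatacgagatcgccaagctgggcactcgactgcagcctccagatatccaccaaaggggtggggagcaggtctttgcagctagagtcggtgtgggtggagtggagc
The fifth pattern, TTCNNNGAA, which STAT dimers bind, was found in 8.3% of windows and in none of the 4 windows matched to the system. RefSeq promoter windows were matched for 4 of the 5 genes, and Usp18 was not matched.

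**Figure D1:**
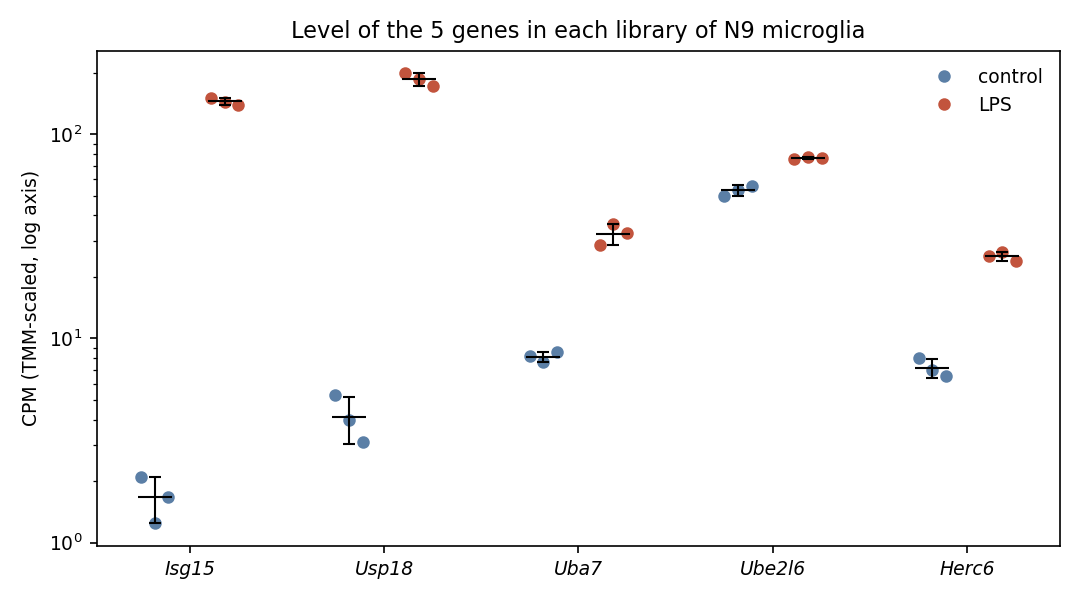
Level of each gene in CPM on a log axis, with 1 point per library, a horizontal line at the group mean and error bars of 1 SD (n = 3 per group). The LPS libraries of all 5 genes sit above the control libraries, by the widest margin for Isg15 (1.67 to 145 CPM) and the narrowest for Ube2l6 (53.0 to 76.5 CPM).

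To compare the genes with each other, CPM was divided by the deposited gene length in kilobases. In control cells Ube2l6 was highest at 26.6 ± 1.61 CPM per kilobase, ahead of Isg15 at 2.21 ± 0.565, Usp18 at 1.47 ± 0.385, Uba7 at 1.22 ± 0.0682 and Herc6 at 0.773 ± 0.0813 (SD, n = 3). The libraries of Isg15 and Usp18 overlapped in this control order, and so did those of Usp18 and Uba7. With LPS the order became Isg15 at 191 ± 6.82, Usp18 at 66.6 ± 4.67, Ube2l6 at 38.3 ± 0.366, Uba7 at 4.85 ± 0.572 and Herc6 at 2.71 ± 0.137 CPM per kilobase, with no overlap between neighbours. The deposited lengths are those of all annotated exons joined, and for Uba7 and Herc6 they far exceed the coding transcript, at 6692 against 3195 bases and 9292 against 4767 bases. With coding transcript lengths the order with LPS was the same, whereas in control cells Uba7 moved from the fourth to the second place, at 2.55 CPM per kilobase, and Isg15 from the second to the fourth, at 2.21. The control libraries of Uba7, Usp18 and Isg15 overlapped with coding lengths, so these places are not separated beyond their spread.

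The summed level of the 5 transcripts was 31.6, 31.8 and 33.3 CPM per kilobase in control and 314, 304 and 292 in LPS libraries. The make-up of this sum turned over. Ube2l6 made up 82.4 ± 3.24% of it in control and 12.6 ± 0.553% in LPS libraries, although its own level rose. Isg15 went from 6.87 ± 1.82% to 63.0 ± 0.273%, and Usp18 from 4.60 ± 1.31% to 21.9 ± 0.752%. Uba7 and Herc6 stayed minor, at 3.78 ± 0.157% and 2.40 ± 0.312% in control and 1.60 ± 0.219% and 0.894 ± 0.0357% in LPS libraries (SD, n = 3). With coding transcript lengths, Uba7 took 5.99% in control and 2.83% in LPS libraries, Herc6 3.54% and 1.47%, Isg15 5.20% and 53.0%, Usp18 5.48% and 29.1%, and Ube2l6 79.8% and 13.6%.

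**Figure D2:**
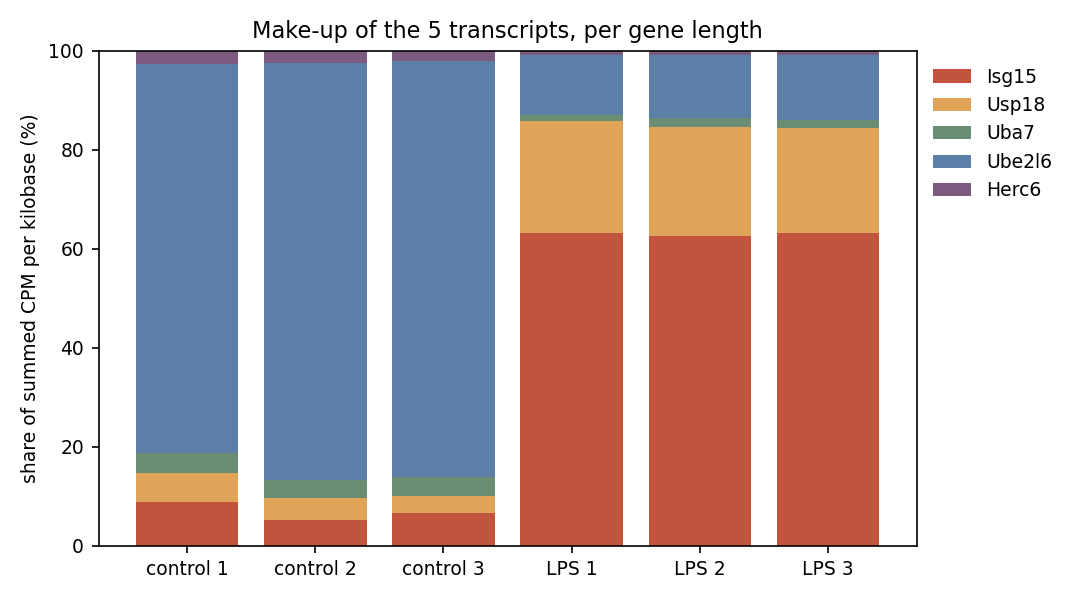
Share of each gene in the summed CPM per kilobase of the 5 genes, with 1 stacked bar per library. Ube2l6 fills most of the 3 control bars (82.4% on average), and Isg15 and Usp18 fill most of the 3 LPS bars (63.0% and 21.9%).

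The balance between members was taken as the ratio of their per-length levels within each library, for all 10 pairs. For 9 pairs the groups did not overlap. The two-sided exact permutation test gave p = 0.1 for each of these, the smallest value that 3 libraries against 3 allow, and 0.111 after adjustment over the 10 pairs. The modifier against its protease, Isg15 to Usp18, was 1.48, 1.16 and 1.97 in control and 2.79, 2.85 and 2.99 in LPS libraries. Transcript of Isg15 thus stood higher against Usp18 in every LPS library, although both rose. With coding transcript lengths the same ratios were 0.937, 0.736 and 1.25 in control and 1.77, 1.81 and 1.90 in LPS libraries, so which of the transcripts was higher in control cells depended on the length used, while the fold between groups did not.

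The modifier against its E2 moved furthest. Isg15 to Ube2l6 was 0.112, 0.0615 and 0.0787 in control and 5.23, 4.94 and 4.80 in LPS libraries. The E2 against the E3, Ube2l6 to Herc6, moved the other way, from 28.8, 35.4 and 40.0 to 13.9, 13.6 and 14.98. The E1 against the E3, Uba7 to Herc6, was the pair whose groups overlapped, at 1.43, 1.51 and 1.82 in control and 1.56, 1.90 and 1.91 in LPS libraries. Its log2 ratio differed by 0.17 between the groups (exact permutation p = 0.2, unadjusted and adjusted).

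Each gene of the system belongs to a larger family of enzymes or modifiers that serve ubiquitin and its other relatives. Besides Isg15, 13 of 14 modifier genes were tested, of which 5 were up-regulated, none was down-regulated and none was a DEG. Their median log2 fold change was 0.06, against 0.0036 over all tested genes. The largest value was that of Rps27a, which encodes a fusion of ubiquitin to a ribosomal protein, at 0.47 (SE 0.30, edgeR adjusted p = 0.266). The lowest were those of Sumo2 at -0.39 (adjusted p = 0.599) and Sumo3 at -0.10 (adjusted p = 0.124). Sumo2 passed as down-regulated when low counts were not filtered (edgeR adjusted p = 0.00133). That fit gave no weight to a gene's own spread, so its calls do not weigh how far a gene's libraries lay apart. The value of Sumo2 was 0.70 without control replicate 3 and -1.11 without LPS replicate 2, neither past the test. Rps27a varied widely among libraries, between 3091 and 9985 counts, and passed the test without LPS replicate 1 (edgeR adjusted p = 0.0101) and without the filter on low counts. The count of 5 fell to 3 without any one of control replicate 1, 2 or 3 or LPS replicate 3 and in DESeq2, and to 2 without both control replicates 2 and 3.

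Of 9 other E1 genes, none was up-regulated and Sae1, a subunit of the SUMO E1, was down-regulated at a log2 fold change of -0.20 (SE 0.04, edgeR adjusted p = 0.00196). No E1 was higher at an unadjusted p under 0.05 or by DESeq2 either. Among the others, Uba6, the E1 of FAT10, had the highest value at 0.11 and Uba2 the lowest at -0.12, and neither passed the test. Uba2 joined Sae1 as down-regulated in DESeq2 (adjusted p = 0.0433), with no filter on low counts, with robust dispersion, and without control replicate 2 or LPS replicate 1, and without control replicate 2 there was also 1 E1 higher. Against Uba1, the main E1 of ubiquitin, Uba7 rose by 1.90 on the log2 scale of the within-library ratio, with no overlap between groups.

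Of 38 other E2 genes, 35 were tested, with 8 up-regulated, 3 down-regulated and no DEG. Ube2l6 was in the range of the largest of these. Ube2e2 rose by 0.58 (SE 0.10, edgeR adjusted p = 0.000303) and Ube2f, an E2 of NEDD8, by 0.54 (SE 0.10, edgeR adjusted p = 0.000543), close to the 0.53 of Ube2l6. Ube2c and Ube2t, which act in mitosis and in DNA repair, had log2 fold changes of -0.25 and -0.36 and were down-regulated, Ube2t no longer without control replicate 3 (edgeR adjusted p = 0.0618) or LPS replicate 1 (adjusted p = 0.0949). Without both control replicates 2 and 3 neither passed, with -0.16 for Ube2c (adjusted p = 0.141) and -0.41 for Ube2t (adjusted p = 0.0965). Ube2l3, the closest relative of Ube2l6 and an E2 of ubiquitin, had 0.08 (SE 0.06, edgeR adjusted p = 0.326), and the ratio of Ube2l6 to Ube2l3 rose by 0.45 on the log2 scale with no overlap. The 8 up-regulated E2 genes fell to 4 without control replicate 3 and to 5 without LPS replicate 2.

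The 4 other HERC ligases did not move past the test in either direction, by edgeR, by DESeq2 or at an unadjusted p under 0.05. Their log2 fold changes were 0.03 for Herc1 (SE 0.11), -0.11 for Herc2 (SE 0.11), -0.02 for Herc3 (SE 0.05) and -0.02 for Herc4 (SE 0.06). Herc3 had 1089, 1222 and 1288 counts in control and 1037, 1132 and 1072 counts in LPS libraries. The groups of Herc3 overlapped in CPM, whereas the ratio of Herc6 to Herc3 rose by 1.83 on the log2 scale without overlap.

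Of 49 other ubiquitin-specific proteases, 42 were tested, with 6 up-regulated, 1 down-regulated and no DEG. Usp25, which acts in innate immune signalling, had the largest value, with 116 ± 3.17 CPM in control and 191 ± 6.78 CPM with LPS (SD, n = 3) and a log2 fold change of 0.72 (SE 0.05, edgeR adjusted p = 1.14e-08). Usp35 followed at 0.62 (SE 0.18, edgeR adjusted p = 0.016), and this call was lost without control replicate 1 or 2 or LPS replicate 3. Usp2 at -0.27 and Usp49 at -0.58 had the lowest values and did not pass (edgeR adjusted p = 0.0558 and 0.0507), although Usp2 did without LPS replicate 1 (adjusted p = 0.0259), with robust dispersion and with no filter, and Usp49 did with RLE scaling (adjusted p = 0.0484) and the filter at a mean of 10 counts (adjusted p = 0.0499). The count of down-regulated proteases was 5 without control replicate 1 and 2 without LPS replicate 1.

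The ratios to related genes were chosen after the values were seen. The fourth, Isg15 to Ubb, a ubiquitin gene, lay between -6.42 and -5.83 on the log2 scale in control and between -0.01 and 0.07 in LPS libraries, so that per length Isg15 stood near Ubb with LPS. The exact permutation test gave p = 0.1 for each of the 4 ratios, the smallest possible, and 0.1 after adjustment.

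**Figure D3:**
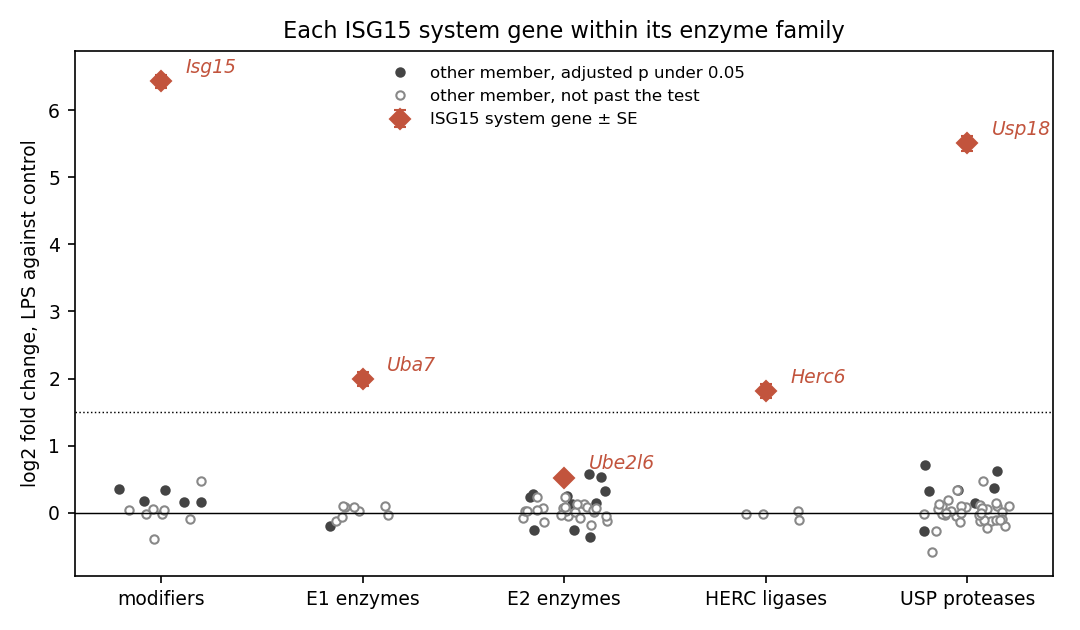
Log2 fold change of each gene of the system (diamonds, error bars of 1 SE) beside the other tested genes of its family, with filled circles for an adjusted p under 0.05 and open circles for those not past the test. The dotted line marks the DEG threshold of 1.5, and 4 of the 5 diamonds lie above it, whereas no other family member does.

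Conjugation systems for other modifiers are built in the same order of E1, E2, E3 and protease. In the SUMO system, 3 of 16 genes were down-regulated, and the median log2 fold change was -0.08. Pias3, a SUMO E3 ligase, had the lowest value at -0.49 (SE 0.11, edgeR adjusted p = 0.00296).

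In the NEDD8 system 1 of 9 genes was up-regulated, 1 was down-regulated and the median was 0.01. These were Ube2f, above, and the protease gene Senp8 at -0.38 (SE 0.13, edgeR adjusted p = 0.0339), whose call was lost in DESeq2 and without control replicate 1 or 3 or LPS replicate 1 or 3. In the UFM1 system none of 8 genes was up-regulated, also by DESeq2 or at an unadjusted p under 0.05, and the protease gene Ufsp2 was down-regulated at -0.17 (SE 0.05, edgeR adjusted p = 0.0243). That call was lost without control replicate 3 or LPS replicate 2 or 3, and without control replicate 2 the count was 2. FAT10, encoded by Ubd, is like ISG15 a cytokine-inducible modifier of tandem ubiquitin-like domains, and Ubd had 0 counts in all 6 libraries. Its enzymes Uba6 and Ube2z had log2 fold changes of 0.11 and 0.02 and did not pass in edgeR, in DESeq2 or at an unadjusted p under 0.05.

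Outside the dedicated set, 7 genes encode other known partners of ISG15 or USP18, of which 4 were up-regulated, none was down-regulated and 1 was a DEG, with a median log2 fold change of 0.15. At adjusted p under 0.05, 34.3% of all tested genes changed in either direction. Trim25, an E3 that can also attach ISG15, rose from 233 ± 1.12 to 562 ± 10.8 CPM (SD, n = 3), with a log2 fold change of 1.27 (SE 0.04, edgeR adjusted p = 1.73e-12). Its LPS libraries lay far above its control libraries. Arih1, another reported ISG15 ligase, had 0.15 (SE 0.04, edgeR adjusted p = 0.0145), and this call was lost without control replicate 3 (adjusted p = 0.0803) or LPS replicate 2 (adjusted p = 0.0611).

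Stat2, whose protein anchors USP18 at the interferon receptor, had 304, 387 and 317 counts in control and 1333, 1607 and 1418 counts in LPS libraries. It was the DEG of this list, at a log2 fold change of 2.24 (SE 0.09, edgeR adjusted p = 3.58e-11). Ifnar2, the receptor chain that USP18 binds, had 0.09 (SE 0.07, edgeR adjusted p = 0.385), and Skp2, which targets USP18 for breakdown, had 0.05 (SE 0.07, edgeR adjusted p = 0.657). ITGAL and ITGB2 form the integrin LFA-1, a receptor for ISG15 outside cells. Itgb2 rose by 0.44 (SE 0.04, edgeR adjusted p = 6.57e-07), and Itgal had -0.25 and did not pass (adjusted p = 0.12).

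The interferon receptor pathway, known to act on the genes of the system, was represented by 10 genes. Of the 9 tested, 6 were up-regulated, 4 were DEG and none was down-regulated, with a median log2 fold change of 0.92. Irf7, a transcription factor that amplifies type I interferon, had 176, 154 and 159 counts in control and 2243, 2490 and 2241 counts in LPS libraries. The groups were far apart, with a log2 fold change of 3.97 (SE 0.07, edgeR adjusted p = 6.36e-15). Stat2 and Irf9, whose proteins act together at the ISRE, rose by 2.24 and 2.08. Irf3 had the lowest value at -0.04 and Ifnar2 the next, and neither passed the test. Ifnb1 itself, the interferon-β gene, had 0, 0 and 0 counts in control and 1, 1 and 0 counts in LPS libraries and was not tested, so at this depth and 6 h no change in its transcript was detectable.

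Among 16 genes whose proteins are reported to carry ISG15, 8 were up-regulated, 1 was down-regulated and 5 were DEG, with a median log2 fold change of 0.15. Mx1, an antiviral GTPase, had 5, 2 and 1 counts in control and 207, 176 and 175 counts in LPS libraries, a log2 fold change of 6.19 (SE 0.30, edgeR adjusted p = 5.16e-10). Its size rests on these few control counts, at 5.44 with a prior count of 2, 6.98 without control replicate 1 and 5.26 without both control replicates 2 and 3, each past the test. Ddx58, which encodes the RNA sensor RIG-I, rose from 8.03 ± 0.785 to 171 ± 9.16 CPM (SD, n = 3), with a log2 fold change of 4.41 (SE 0.07, edgeR adjusted p = 1.7e-15). Ifih1, the RNA sensor MDA5, at 3.52, and Eif2ak2, the kinase PKR, at 1.62 were also DEG. These 2 and Irf9 were named after their values were seen. Pcna, the sliding clamp of DNA replication, was the gene that fell, from 376 ± 18.8 to 295 ± 8.01 CPM (SD, n = 3), with a log2 fold change of -0.35 (SE 0.04, edgeR adjusted p = 2.2e-05). Irf3 had -0.04 and belongs to this list and to the interferon pathway list.

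Genes with the most similar profile were found for each member as the 5 with the smallest root mean square difference over the 6 libraries, in log2(CPM + 0.5) after each gene's mean was subtracted, among 10458 genes whose counts averaged 50 or more. Because all points come from the same 6 libraries, the likeness describes these libraries alone. Nearest to Isg15 were Gbp7 at a difference of 0.198, Ifit3b at 0.201, Cxcl2 at 0.219, Ifit3 at 0.318 and Cxcl10 at 0.333, which are interferon-inducible genes and chemokines. The 0.5 CPM offset understates the change of a gene near 0 in control. Ifit3b had 3, 3 and 2 control counts and a fitted log2 fold change of 8.02, or 7.25 with a prior count of 2, so it was near Isg15 on this scale and not in fold change. Reads of Ifit3 and its near-identical paralog Ifit3b may be divided between them by the counting. Nearest to Usp18 were Ccl5 at 0.217, Gbp2 at 0.233, Gbp7 at 0.274, Il1a at 0.278 and Rtp4 at 0.280. Il1a had 0, 0 and 1 control counts and a fitted log2 fold change of 9.34, or 6.96 with a prior count of 2 and 11.1 without control replicate 3, against 5.50 for Usp18. For the other 4 genes nearest to Usp18 it ran from 5.50 to 6.48. Among them, Ccl5 had 12, 4 and 5 control counts. Its value of 6.13 became 6.77 without control replicate 1 and 5.31 without both control replicates 2 and 3. The pair Isg15 and Usp18 differed by 0.404, so that each had 5 genes nearer than the other.

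Nearest to Uba7 were Sp140 at 0.0769, Irak3 at 0.0784, Tgm2 at 0.0924, Ikbke at 0.102 and Parp10 at 0.109. Nearest to Herc6 were Serpinb9b at 0.0574, Parp12 at 0.0599, Ccl2 at 0.0765, H2-T24 at 0.0822 and Ehd1 at 0.0835. Uba7 and Herc6 differed from each other by 0.164. For Ube2l6 the nearest were Zfp36 at 0.0313, Plxna1 at 0.0363, Smurf1 at 0.0367, Cd38 at 0.0368 and Swap70 at 0.0371, whereas it differed from Isg15 by 2.78.

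The 5 genes lie at 5 separate places, and their neighbours within 100000 bases were read from the same fit. Of all tested genes, 18.7% were up-regulated. Around Isg15, 4 of 5 tested neighbours were up-regulated. Agrn, on the same strand and 1936 bases beyond the 3′ end of Isg15, rose by 1.13 (SE 0.11, edgeR adjusted p = 9.18e-07). Perm1 rose by 1.92 (SE 0.27, edgeR adjusted p = 4.68e-05) from few counts, with 25, 18 and 49 in control and 94, 123 and 100 in LPS libraries. The other 2 were Plekhn1 at 0.80 and Noc2l at 0.16, the latter lost without control replicate 3 (edgeR adjusted p = 0.0862).

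Around Herc6, 3 of 4 tested neighbours were up-regulated, with Ppm1k at 1.15 (SE 0.15, edgeR adjusted p = 3.26e-05), Lancl2 at 0.41 and Vopp1 at 0.30. Around Usp18 this was 1 of 3 neighbours, Slc6a12 at 0.85, and around Ube2l6 1 of 3, Timm10 at 0.30. None of the 8 tested neighbours of Uba7 was up-regulated, and Traip at -0.30 and Rnf123 at -0.18 were down-regulated, the latter with an adjusted p of 0.0458 in edgeR. The call on Rnf123 was lost in DESeq2 (adjusted p = 0.107) and in 5 of the 6 fits that left out 1 library, all but that without control replicate 3. Traip was lost without control replicate 2 or LPS replicate 3 (adjusted p = 0.0930 and 0.0937), and Vopp1 without control replicate 2 (adjusted p = 0.0664). Genes that overlap Uba7 or Herc6 had no more than 1 count in any library. Gm20661 over Uba7 and Gm45193 over Herc6 lie on the same strand as the member, where no strand setting separates reads. How the counting treated strand, and reads shared by overlapping genes, is not given in the sources used here. Reads over such overlaps therefore cannot be told apart, and reads left uncounted there cannot be seen. These neighbours were named after their values were seen.

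**Figure D4:**
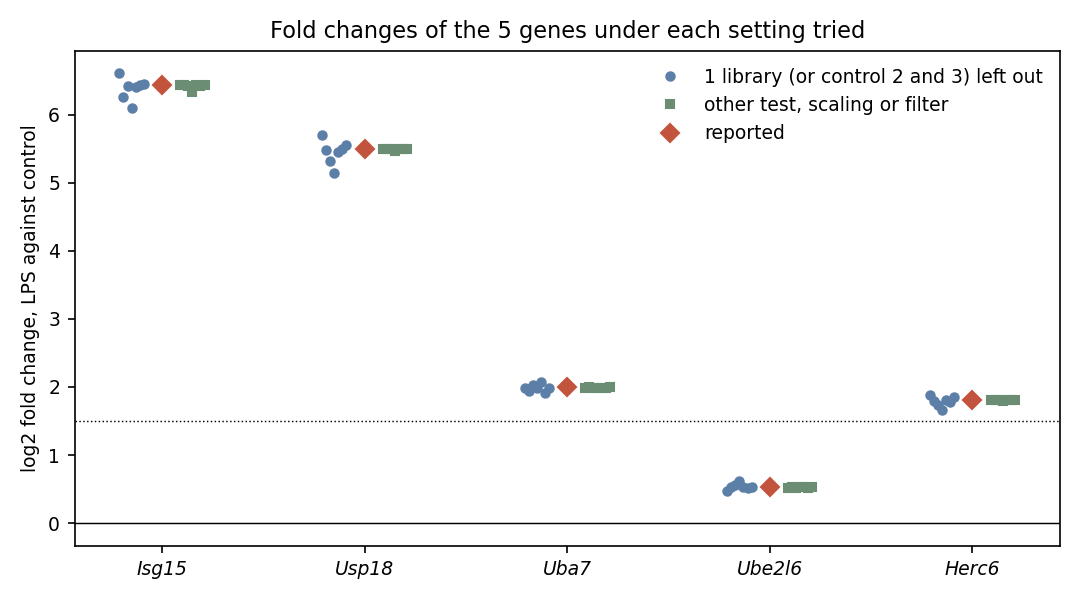
Log2 fold change of each gene as reported (diamonds) and under each alternative, with circles for fits that leave out 1 library or both control replicates 2 and 3, and squares for another test, scaling, filter, prior count, dispersion or block. The dotted line is the DEG threshold of 1.5, and Herc6 is the gene above it whose fits come nearest, with a lowest value of 1.66.

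The fold changes held under these alternatives. Isg15 ran from 6.25 to 6.61, Usp18 from 5.33 to 5.70, Uba7 from 1.91 to 2.08, Ube2l6 from 0.47 to 0.56 and Herc6 from 1.74 to 1.89 on the log2 scale when each library was left out in turn. Without control replicates 2 and 3, the libraries with hepatocyte markers, the values were 6.10 for Isg15, 5.14 for Usp18, 1.98 for Uba7, 0.63 for Ube2l6 and 1.66 for Herc6, each past the test. This fit has 1 control library, which is assumed to vary like the others.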

How the data were processed

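RNA was sequenced by Novogene for the authors from 6 samples, 3 with LPS and 3 control, grouped by their titles. The authors deposited whole-number read counts per gene without normalization for 54532 genes, and per the labels' processing notes these came from featureCounts version 1.5.0-p3 on mm10. The aligner, the annotation and the strand setting are not given in the sources used here. The deposited table of the authors' own comparison, which holds fold changes and p-values, was not used.

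Counts were tested with edgeR 4.0.16 under R 4.3.3, with TMM scaling, filterByExpr, a prior count of 0.125, the quasi-likelihood test and Benjamini-Hochberg adjustment over 12296 genes. The SE is the absolute log2 fold change divided by the square root of F. The paper's thresholds were used, and its test, DESeq2, was run in version 1.42.0 as an alternative. The other alternatives were RLE scaling, filters, glmTreat, robust dispersion, a prior count of 2, the replicate number as a block, and omitted libraries. Without the filter on low counts, edgeR's weight on the spread shared across genes (prior degrees of freedom) was infinite, against 10.1 in the main fit. A call gained in that fit therefore does not weigh the gene's own spread among libraries. Fits were tested on simulated data. Ratios used exact permutation tests in scipy 1.17.1, and figures used matplotlib 3.10.9. Exon models came from GENCODE M21 and promoters from RefSeq on GRCm38.p6, with 5 motifs searched as exact matches on both strands of 300 bases.

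The members and gene lists were chosen with earlier results of these data known. Named by rule were the 5 members, all genes of the partner, HERC and FAT10 lists, the 2 highest and 2 lowest tested genes of each other list, and the 5 nearest profiles per member. Some genes of these lists are counted but not reported by name here. Omitting both control replicates 2 and 3, coding transcript lengths, and the ratios to related genes were added after seeing the data. Reads carried no stated molecular identifiers, so counting limits cover counting error alone.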

Additional observations from a re-analysis of the deposited data

How the results depend on the processing

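The 5 fold changes kept their direction and stayed past the adjusted p under all 14 alternatives each. The levels of the ratios between members depend on the gene length used, and the length cancels from their difference between groups. The number of members called as DEG was 4 except under glmTreat, where it was 3, without Herc6. Over all tested genes, 326 DEG became 183 under glmTreat, which tests against the fold change threshold itself, and between 353 and 377 when 1 library was left out, with 360 in DESeq2, 334 without control replicates 2 and 3, 469 without the filter on low counts, 308 with a filter at a mean of 10 counts and 305 with a prior count of 2. Of 1148 alternative values for 82 named genes, 1088 gave the same call, 43 lost it and 17 gained it. None reversed, which was counted only for genes past the test in the main fit. Sumo2, which did not pass, changed sign from -0.39 to 0.70 without control replicate 3.

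With the replicate number as a block, 329 DEG and 4474 changed genes were found against 326 and 4221, and 4 members were called. Of the named genes, Rps27a, Uba2 and Usp2 passed with the block alone added (adjusted p = 0.0039, 0.0238 and 0.0311). The numbers were not taken as a pairing. The correlations of deviations between same-numbered libraries were 0.131, 0.0484 and 0.0049, and control replicate 2 correlated best with LPS replicate 3 (0.0772). The 0.131 of control and LPS replicate 1 was the largest of all pairs. With so few libraries these values do not settle whether the samples were paired.

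Limits lie in the small changes. List counts that rest on changes near 0.2 on the log2 scale moved with single libraries, as between 4 and 10 up-regulated E2 genes and between 1 and 5 down-regulated ubiquitin-specific proteases, and the cause was not tested. Isg15 in control cells rests on 22 to 36 counts per library, so its fold change is less precise than its LPS level. Ifnb1 was below what 3 counts allow to compare.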
